A study of Mus musculus with 11 samples.

Results

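The baseline transcriptome of mouse embryonic stem cells (ESCs) was read from the RNA-seq libraries of the control arm, which are 2 of the 4 RNA-seq samples and 2 of the 11 samples of the series. The cells were E14Tg2A ESCs, a feeder-free line of wild-type origin grown on gelatin in medium with fetal bovine serum and leukemia inhibitory factor (LIF), and they had been infected with a lentivirus that carries a control short hairpin RNA (shCtl). Members are the columns of shCtl replicates 1 and 2, chosen by their labels, and 23265 genes with a symbol were measured in both. The knockdown arm was not used. For the level of genes near Polycomb proteins, the peak lists of RING1B, of CBX7 and of both replicates of an anti-HA ChIP-seq in CBX6-3xHA ESCs were joined to the same genes. No label names a hairpin for the cells of these 4 lists, and the CBX6 lists came from a line edited to carry the tag. No label says that the shCtl replicates were separate infections, so the spread between them may be technical.

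ESCs correspond to the early epiblast of the embryo and can give rise to every lineage of the body. Serum and LIF keep them dividing in a state in which a network around OCT4 (encoded by Pou5f1), SOX2 and NANOG is active while genes of the later lineages are kept low. Polycomb proteins are part of that silence. PRC2 methylates lysine 27 of histone H3, and PRC1, built around RING1A or RING1B, ubiquitinates histone H2A. In canonical PRC1 a CBX protein such as CBX7 reads the mark left by PRC2. In mammals the sites that both complexes occupy are mostly CpG islands, stretches rich in the dinucleotide CG.

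The sequence around 4 gene starts shows the kinds of promoter that the values below compare. Each window runs from 250 bases before to 50 bases after the start of the GENCODE gene model on mm9, is written 5′ to 3′ on the strand of the gene, and has every CG in capitals. They are shown because they pair a highly expressed gene with a silent gene under Polycomb peaks, a silent gene without a peak, and an expressed germline gene with a RING1B peak.
Pou5f1: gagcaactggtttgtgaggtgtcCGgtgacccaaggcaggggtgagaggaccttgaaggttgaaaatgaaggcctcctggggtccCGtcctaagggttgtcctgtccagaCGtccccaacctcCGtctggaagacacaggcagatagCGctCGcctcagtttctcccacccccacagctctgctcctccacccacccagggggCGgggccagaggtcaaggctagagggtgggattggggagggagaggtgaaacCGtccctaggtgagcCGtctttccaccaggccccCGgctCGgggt
Hand2: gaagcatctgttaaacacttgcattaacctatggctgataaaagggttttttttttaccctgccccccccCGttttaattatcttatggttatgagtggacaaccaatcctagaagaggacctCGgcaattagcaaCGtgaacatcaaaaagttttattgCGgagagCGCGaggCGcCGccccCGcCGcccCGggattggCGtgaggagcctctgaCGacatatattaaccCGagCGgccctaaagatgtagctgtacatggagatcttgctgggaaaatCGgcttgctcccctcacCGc
Alb: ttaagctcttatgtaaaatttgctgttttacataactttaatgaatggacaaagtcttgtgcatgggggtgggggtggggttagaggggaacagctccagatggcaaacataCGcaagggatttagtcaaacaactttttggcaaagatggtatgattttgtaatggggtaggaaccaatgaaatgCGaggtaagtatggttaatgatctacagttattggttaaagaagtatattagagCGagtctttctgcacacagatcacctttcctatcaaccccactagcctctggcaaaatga
Sycp3: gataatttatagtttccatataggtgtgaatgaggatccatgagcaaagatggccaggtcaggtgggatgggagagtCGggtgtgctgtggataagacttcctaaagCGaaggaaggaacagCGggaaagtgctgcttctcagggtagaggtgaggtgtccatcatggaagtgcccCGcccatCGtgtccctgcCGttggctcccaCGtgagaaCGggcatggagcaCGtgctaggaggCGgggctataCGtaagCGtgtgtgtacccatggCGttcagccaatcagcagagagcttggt

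The Pou5f1 window (chr17:35642732-35643031, plus strand) holds 11 CG and belongs to a gene at 1359 FPKM in replicate 1 and 1452 FPKM in replicate 2. FPKM is a fragment count scaled to the length of the transcript and to the number of mapped fragments, so values of different genes can be compared per length. The deposited table is named for RPKM, whereas the labels and the methods of the study name FPKM, and the values were taken as FPKM. The Hand2 window (chr8:59799530-59799829, plus strand) holds 17 CG. Hand2, a regulator of heart and limb development, was listed at 0 FPKM in both libraries, and peaks of RING1B, CBX7 and both CBX6 replicates lay over its start. Alb, which encodes the serum albumin made by liver, was also listed at 0 in both libraries, and its window (chr5:90889665-90889964, plus strand) holds 3 CG and no peak of any list. Sycp3, a component of the meiotic synaptonemal complex, stood at 16.5 and 14.1 FPKM with a RING1B peak of score 90.3 over its start. Its window (chr10:87922064-87922363, plus strand) holds 13 CG. Over all 21915 genes with such a window the median was 12 CG, and 95.2% of the windows held at least 1.

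The FPKM of all entries summed to 678255 in replicate 1 and 693414 in replicate 2. Read totals are not given. The relative depth was estimated from small noncoding RNA entries that rest on few fragments, whose values should be whole multiples of what 1 fragment is worth. The most common ratio between the libraries, found at 9 entries, was assumed to mark equal fragment counts. On that assumption, replicate 2 was 1.01 times as deep as replicate 1. The marker genes of ESCs were all high. Nanog was read at 321 and 359 FPKM and Sox2 at 133 and 152 FPKM. Zfp42, which encodes REX1, stood at 395 and 470 FPKM, and Esrrb, an orphan nuclear receptor of the naive network, at 203 and 189 FPKM. With Pou5f1, these 5 markers lay above at least 97.2% of all genes. The reference gene Hprt, of the purine salvage pathway, stood out on the low side at 0.475 and 0.417 FPKM. E14Tg2A is known as a line selected for HPRT deficiency.

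By the threshold of the study, a mean of at least 1 FPKM, 11158 of the 23265 genes were expressed (48.0%, 95% Wilson interval 47.3 to 48.6, which covers counting error only). The libraries taken alone gave 11106 and 11102 genes. Both libraries reached 1 FPKM for 10862 genes, and 484 genes reached it in a single library. Close to the threshold lay 135 genes with a mean from 1 to 1.1 FPKM and 138 with a mean from 0.9 to 1 FPKM. The median was 0.709 FPKM over all genes and 11.7 FPKM over the expressed genes. At least 10 FPKM were reached by 6051 genes and at least 100 FPKM by 902 genes, while 5647 genes (24.3%) were listed at 0 in both libraries.

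The expressed share differed by the kind of gene. Of 20252 protein-coding genes, 10588 were expressed (52.3%), with a median of 1.41 FPKM. Of 431 long intergenic noncoding RNAs, 114 were expressed (26.5%, Wilson interval 22.5 to 30.8), with a median of 0.205 FPKM. Annotated pseudogenes numbered 194, of which 67 were expressed (34.5%). Reads that map to more than 1 place were discarded by the authors, so the values of pseudogenes and of their parent genes are uncertain. A listed 0 is likewise not proof of absence. Hmgcs1, an enzyme of cholesterol synthesis that dividing cells need, was listed at 0 in both libraries.

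**Figure D1:**
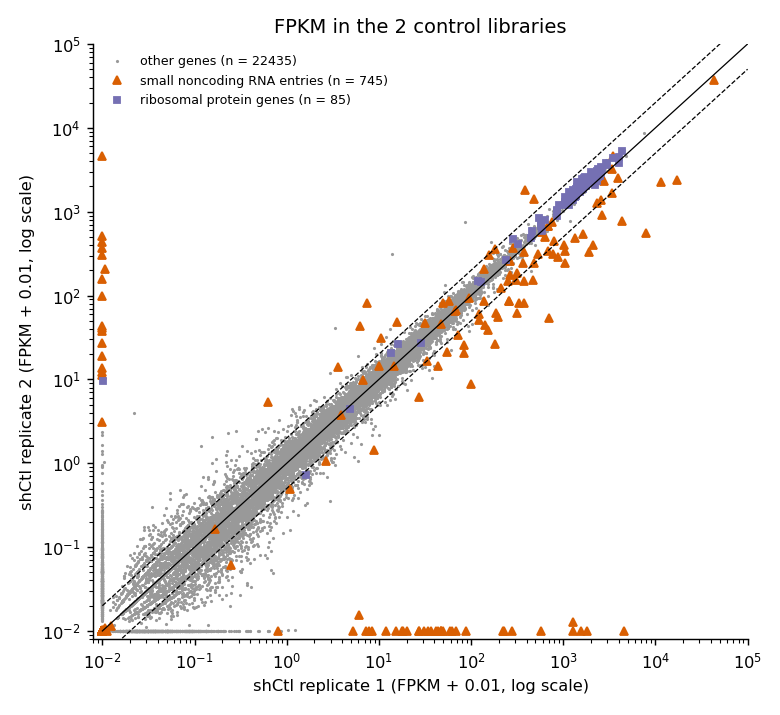
Each point is a gene, with FPKM + 0.01 in shCtl replicate 1 on the horizontal axis and in shCtl replicate 2 on the vertical axis, both on a log scale. The solid line marks equal values and the dashed lines a 2-fold difference. Most genes above 1 FPKM lie between the dashed lines, whereas small noncoding RNA entries (triangles) often lie outside them or on the axes.

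Of the 20 entries with the highest mean, 7 were small noncoding RNAs. The highest of all was Mir692-1, a microRNA entry of 109 bases on chromosome 17, at 43351 and 37688 FPKM. Snord47, a guide RNA for methylation of ribosomal RNA that lies in an exon of its host transcript Gas5, was read at 17120 and 2415 FPKM, and Gas5 itself at 95.3 and 38.1 FPKM. Snord99 stood at 11592 and 2289 FPKM and Snord45c at 7860 and 564 FPKM. The libraries thus differed by several fold at 3 of the most abundant entries. Mir703, which lies within an exon of Eef1a1, was close in both libraries, at 3359 and 3236 FPKM. Small noncoding RNA entries together took 22.2% of the summed FPKM in replicate 1 and 12.6% in replicate 2.

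Many of these small entries had values that stood in ratios of small whole numbers. After correction for depth, the values of Snord47 stood at 7 to 1, those of Snord99 at 5 to 1 and those of Snord69 at 3 to 4. Snord12, at 3922 and 2517 FPKM, gave no ratio of whole numbers up to 10, and larger whole numbers were not tried. Among 90 small RNA entries with a mean of at least 1 FPKM and more than 0.1 FPKM in each library, 54 (60%) had a ratio within 0.01% of a ratio of whole numbers up to 10. The 9 entries whose ratio set the depth correction were among the 90, so their match was fixed in advance. Among 5930 longer genes of at least 10 FPKM the share was 0.624%. Snord49b, at 878 and 289 FPKM, stood at 3 to 1, so a high FPKM at such an entry can come from a handful of fragments.

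Among longer RNAs, genes of translation led. Eef1a1, which encodes the elongation factor that brings aminoacyl-tRNA to the ribosome, was the highest at 7434 and 8750 FPKM. The second was Dppa5a, an RNA-binding protein of pluripotent cells, at 4580 and 5397 FPKM. Rplp1, of the ribosomal stalk, stood at 4357 and 5248 FPKM. Ftl1, the ferritin light chain, stood at 4786 and 4668 FPKM. Further down came the ribosomal protein genes Rps18 (4002 and 4533 FPKM), Rps12, Rpl41, Rps20 and Rpl12, the predicted gene Gm9846 (2879 and 4133 FPKM), the peptidyl-prolyl isomerase Ppia (3624 and 4357 FPKM) and the chaperone Hspa8 (2890 and 3471 FPKM). Dppa5a was thus the highest gene that marks ESCs rather than growth in general. Ribosomal protein genes made up 10 of the 20 and 44 of the 60 highest longer entries.

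All 85 ribosomal protein genes found by their symbols were expressed, with a median of 1840 FPKM, and together they took 19.5% of the summed FPKM in replicate 1 and 23.4% in replicate 2. Most were higher in replicate 2, namely 79 of the 85, where 62.7% of all expressed genes were. At the low end stood Rpl3l, a copy of striated muscle, at 1.63 and 0.718 FPKM, together with Rps27 at 4.82 and 4.41 FPKM. Rpl26 was read at 0.000287 and 9.58 FPKM, so its libraries did not agree. Many ribosomal protein genes have processed copies elsewhere in the genome, and how reads were divided among them cannot be told from the table.

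The core pluripotency genes were all expressed, 12 of 12, with a median of 153 FPKM and a lowest mean of 15.5 FPKM, where 48.0% of all genes were. Pou5f1 was the highest. Trim28, a corepressor that silences retroelements, followed at 626 and 642 FPKM and Tdgf1, a NODAL co-receptor, at 517 and 534 FPKM. Fgf4, the growth factor that pushes ESCs toward differentiation, stood at 68.3 and 58.9 FPKM, and Lin28a, which blocks maturation of the microRNA let-7, at 80.2 and 80.3 FPKM. The lowest was Foxd3 at 16.0 and 15.0 FPKM. None of the other 11 genes had a RING1B, CBX7 or CBX6 replicate 2 peak within 2.5 kb of its start, whereas Foxd3 had all 3, with a RING1B score of 2707. CBX6 replicate 1 had a peak near the start of all 12, with a score of 473 at Pou5f1. That list is long, with a peak near the start of 11318 of the 21919 genes with coordinates.

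Of the naive genes, which mark the state closest to the preimplantation epiblast, 18 of 18 were expressed. Their median was 83.4 FPKM. Klf4 stood at 91.1 and 96.7 FPKM, Tfcp2l1 at 64.8 and 55.6 FPKM and Nr0b1 at 91.6 and 91.0 FPKM. Klf2, another Kruppel-like factor of the network, was read at 67.6 and 102 FPKM, farther apart than its relatives. Tbx3 (34.3 and 34.0 FPKM) and Prdm14 (12.3 and 11.0 FPKM) were the naive genes with peaks of all 3 of RING1B, CBX7 and CBX6 replicate 2 at the start. Dppa3, which protects maternal methylation in the zygote, was the lowest at 2.36 and 2.19 FPKM.

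Genes of the formative and primed states, which mark the epiblast after implantation, were lower, with a median of 4.03 FPKM and 8 of 11 expressed. The de novo methyltransferase Dnmt3b stood at 31.8 and 31.8 FPKM. Otx2 stood at 3.42 and 4.65 FPKM. Fgf5, the usual marker of the primed epiblast, stood at 0.394 and 0.351 FPKM. At 6 of the 11 starts lay peaks of all 3 of RING1B, CBX7 and CBX6 replicate 2, where 2467 of all 21919 genes with coordinates had them.

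The 10 genes of the LIF list were all expressed, from the STAT3 target Pim3 at 95.4 and 112 FPKM to the kinase Jak2 at 1.13 and 1.04 FPKM. The receptor chain Il6st stood at 16.9 and 16.4 FPKM and its partner Lifr at 8.78 and 7.21 FPKM. Socs3, a feedback inhibitor that STAT3 induces, stood at 35.7 and 38.2 FPKM. Genes of the rare 2-cell-like state were near or below the threshold. The highest, Zscan4f, was read at 1.47 and 0.661 FPKM, and 2 of the 10 were listed at 0 in both libraries. Of the 8 with coordinates, none had a peak of any list near the start. They belong to multicopy families, so their values are uncertain.

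**Figure D2:**
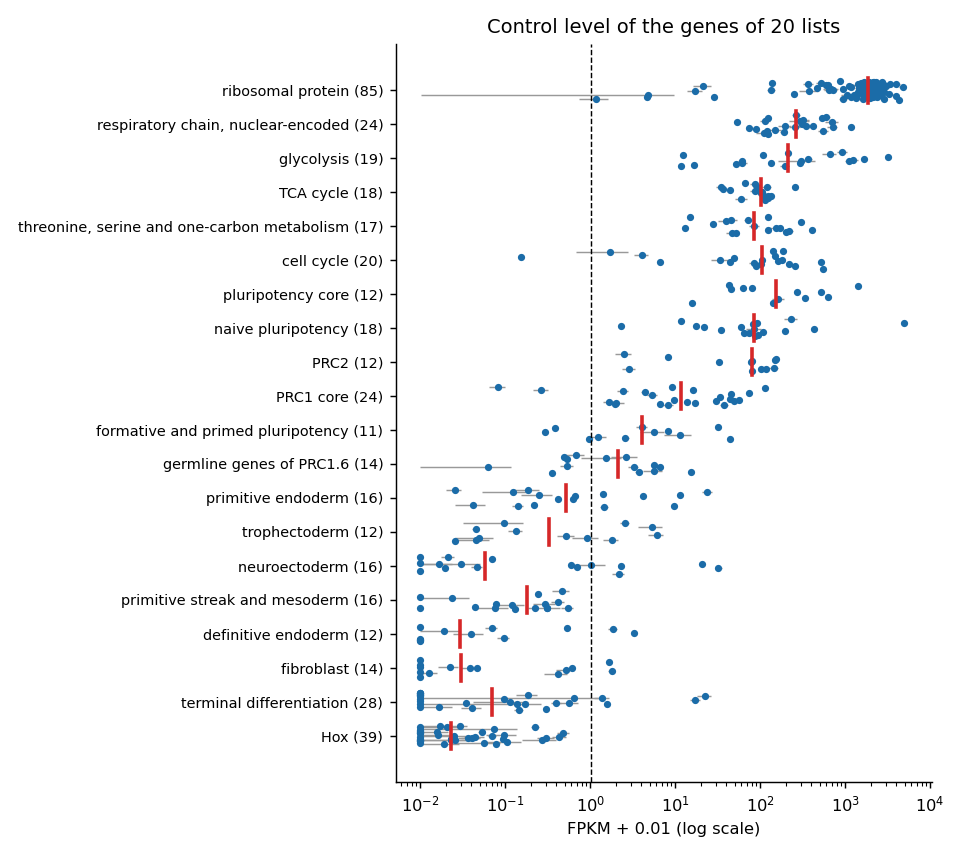
Each point is a gene at its mean of both control libraries plus 0.01 FPKM, on a log scale, with a grey line between its values in replicates 1 and 2. Red bars mark the median of each list, the dashed line marks 1 FPKM, and the number of genes is in brackets. Growth, metabolic and pluripotency lists lie to the right of the threshold, and lineage lists and Hox genes to its left.

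Lists of metabolism were expressed almost in full. All 19 glycolysis genes passed 1 FPKM, with a median of 212 FPKM. Gapdh led with 3163 and 3276 FPKM, followed by Pkm at 1660 and 1698 FPKM and Aldoa at 1084 and 1422 FPKM. Of the hexokinases, which start the pathway, Hk2 stood at 69.3 and 53.1 FPKM and Hk1 at 10.9 and 12.2 FPKM. Of the glucose transporters, Slc2a3 stood at 288 and 308 FPKM and Slc2a1 at 134 and 134 FPKM. Eno1, enolase 1, was read at 163 and 441 FPKM and was the gene of the list whose libraries differed most.

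All 18 genes of the TCA cycle were expressed, with a narrower range from 34.6 to 254 FPKM and a median of 101 FPKM. The 24 nuclear-encoded genes of the respiratory chain had a median of 261 FPKM, led by the ATP synthase subunit Atp5b at 1093 and 1279 FPKM. All 24 were higher in replicate 2, where 62.7% of all expressed genes and 89.4% of protein-coding genes at 200 FPKM and above were. Tdh, threonine dehydrogenase, on which mouse ESCs are known to depend for one-carbon units, was the highest of 17 genes of threonine, serine and one-carbon metabolism at 392 and 417 FPKM. Its partner Gcat stood at 32.2 and 46.6 FPKM, and Phgdh, which opens serine synthesis, at 127 and 179 FPKM. All 17 were expressed, with a lowest value of 13.0 FPKM for Mtr. Of 14 genes of glutamine and lipid metabolism, 13 were expressed, the exception being Hmgcs1.

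Replication and cell cycle genes were high, with 19 of 20 expressed. Pcna, the sliding clamp of DNA polymerase, stood at 523 and 577 FPKM, and the 6 MCM helicase subunits had means between 101 and 256 FPKM. Among cyclins, Ccnb1 (206 and 232 FPKM) and Ccne1 (134 and 151 FPKM) were far above Ccnd2 (2.75 and 0.675 FPKM). Ccna1, a germline cyclin, was the gene below the threshold, at 0.133 and 0.153 FPKM. Of the CDK inhibitors, which brake the cycle, 5 of 7 were expressed, with a median of 3.94 FPKM. The highest were Cdkn1b at 14.8 and 18.8 FPKM, Cdkn1a at 10.6 and 14.7 FPKM and Cdkn1c at 9.39 and 11.4 FPKM. Cdkn2a stood at 2.96 and 1.93 FPKM and Cdkn2b at 0.178 and 0.176 FPKM, both with CBX7 and CBX6 replicate 2 peaks at the start. Such peaks were not limited to the low genes. Cdkn1c had them too, with scores of 3177 for CBX7 and 865 for CBX6 replicate 2, and a RING1B peak of score 3100.

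Chromatin genes were mostly expressed. Of the PRC2 list, 12 of 12 passed the threshold. Eed and Suz12, core subunits, stood at 142 and 159 FPKM and at 78.0 and 83.2 FPKM. The catalytic subunits differed in level, with Ezh2 at 71.0 and 86.3 FPKM and Ezh1 at 7.61 and 8.72 FPKM. Of 24 PRC1 genes, 22 were expressed, with a median of 11.8 FPKM. Rnf2, which encodes RING1B, stood at 55.2 and 58.9 FPKM, far above Ring1, which encodes RING1A, at 3.99 and 4.69 FPKM.

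Among the CBX genes described here, Cbx7 (76.2 and 69.9 FPKM) stood above Cbx6 (17.4 and 14.9 FPKM), Cbx2 (8.90 and 9.52 FPKM) and Cbx8 (0.305 and 0.201 FPKM). The libraries did not overlap between any neighbours in this order. Cbx2 and Cbx8 had peaks of RING1B, CBX7 and CBX6 replicate 2 at the start, and Cbx6 and Cbx7 had none of these but a CBX6 replicate 1 peak each, with scores of 280 and 89.6.

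Other chromatin lists held a few genes below 1 FPKM. In the BAF remodelling complex, 15 of 18 genes were expressed. The ATPase Smarca4 stood at 49.6 and 48.4 FPKM and its paralog Smarca2 at 0.223 and 0.204 FPKM, and the neuronal subunit Actl6b at 0.0225 and 0.0222 FPKM. In NuRD, Chd4 stood at 91.6 and 80.3 FPKM and Chd3, the exception of the list, at 1.15 and 0.721 FPKM. Dnmt3l, a cofactor of de novo DNA methylation, was the highest of 11 DNA methylation genes in replicate 2, at 165 and 234 FPKM. Tet1 and Tet2, which oxidise methylcytosine, stood at 45.7 and 29.1 FPKM and at 29.8 and 17.2 FPKM, both higher in replicate 1. All 14 Trithorax and COMPASS genes, all 11 measured heterochromatin genes and all 8 genes of CTCF and cohesin were expressed. Cbx5 was not analysed here.

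Lineage genes were mostly silent. None of the 16 genes of primitive streak and mesoderm reached 1 FPKM, and the highest was Gata1 at 0.445 and 0.615 FPKM. T, the gene of Brachyury, was read at 0.0984 and 0.0324 FPKM, which after depth correction is a ratio of 3 to 1, so values of this size rest on a few fragments. None of the 39 Hox genes reached 1 FPKM. Hoxc13 was the highest of them at 0.393 and 0.549 FPKM, and 13 were listed at 0 in both libraries. Of 12 definitive endoderm genes, 2 were expressed, and the highest was Hhex at 3.33 and 3.24 FPKM.

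Some early lineage genes were read above the threshold. Of 16 primitive endoderm genes, 6 were expressed, among them the matrix genes Sparc (20.7 and 26.8 FPKM), Lamb1 (12.1 and 10.8 FPKM) and Lama1 (9.95 and 9.29 FPKM). The regulators of that lineage were low, with Gata4 at 0.426 and 0.393 FPKM and Sox17 at 0.0103 and 0.0204 FPKM. Of 12 trophectoderm genes, 4 were expressed, with the keratins Krt8 (4.81 and 7.25 FPKM) and Krt18 (3.66 and 6.91 FPKM) on top. The regulators of that lineage differed, with Tfap2c at 2.84 and 2.21 FPKM, Eomes at 2.12 and 1.42 FPKM and Cdx2 at 0.0156 and 0.0615 FPKM. In neuroectoderm, 5 of 16 were expressed. The highest was the neuronal tubulin Tubb3 at 35.2 and 29.1 FPKM, followed by Gbx2 at 20.8 and 21.0 FPKM. Sox1, an early neural regulator, stood at 2.14 and 2.40 FPKM and the microtubule-associated Map2 at 2.51 and 1.78 FPKM. Pax6 was read at 1.47 and 0.569 FPKM, so its libraries lay on either side of the threshold. The regulators Neurog2, Dlx5 and Nkx2-2 of the same list were listed at 0 in both libraries.

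Genes of mature tissues were mostly below the threshold. Of 28 genes of terminal differentiation, 24 had a mean under 1 FPKM and 11 were listed at 0 in both libraries, among them Ins1, Ins2, Gcg and Ptprc. The exceptions were Nphs1, the podocyte gene nephrin, at 26.1 and 18.2 FPKM, the adhesion molecule Pecam1 at 14.8 and 19.5 FPKM, Cd3e at 1.57 and 1.53 FPKM and Krt10 at 1.09 and 1.64 FPKM. Of 14 fibroblast genes 2 were expressed, Acta2 at 1.95 and 1.59 FPKM and Thy1 at 1.68 and 1.64 FPKM. The collagen genes Col1a1 (0.0336 and 0.0398 FPKM), Col1a2 and Col3a1 were near 0, and Dcn, Lum and Postn were listed at 0. The summed level of the fibroblast list was 5.19 and 4.84 FPKM.

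Olfactory and vomeronasal receptor genes were almost all silent. Of 1097 olfactory receptor genes 2 were expressed, Olfr613 with a mean of 13.9 FPKM and 8.86 FPKM in its lower library, replicate 2, and Olfr985 at 5.07 and 6.51 FPKM, and 1039 were listed at 0 in both libraries. Of 321 vomeronasal receptor genes 1 was expressed, Vmn1r58 at 6.89 and 4.37 FPKM. Of 14 germline genes that a variant PRC1 with PCGF6 and MGA is known to repress, 8 were expressed, a share close to the 52.3% of all protein-coding genes, and 4 reached 5 FPKM. Their median was 2.55 FPKM in replicate 1 and 1.27 FPKM in replicate 2. Sycp3 was the highest, followed by Mael at 5.81 and 7.25 FPKM, Ddx4 at 5.85 and 5.51 FPKM and Hormad1 at 7.07 and 4.13 FPKM. RING1B peaks lay at the start of 12 of the 14, and CBX7 peaks at 5. Over all 21919 genes with coordinates, 3151 had a RING1B and 3471 a CBX7 peak there.

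The libraries agreed closely at longer genes. Over all genes Pearson's r of log10(FPKM + 1) was 0.986 and Spearman's rho 0.975. These describe agreement across genes, which are not independent replicates. Of the 11158 expressed genes, 296 differed at least 2-fold between the libraries (2.65%), 181 of them higher in replicate 1 and 115 in replicate 2. With 1 library on each side this carries no test. Of 141 expressed small RNA entries, 101 were 2-fold apart (71.6%), against 149 of 10588 protein-coding genes (1.41%). The share among protein-coding genes fell from 6.25% at 1 to 2 FPKM to 2.68% at 2 to 5 FPKM and 0.367% at 10 to 50 FPKM, and was 0.794% at 200 FPKM and above (3 of 378 genes).

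The ratio of the libraries moved with the length of the transcript. For protein-coding genes whose longest annotated transcript has under 500 bases, the median log2 ratio of replicate 2 to replicate 1 was 0.40, with 84.0% of 75 genes higher in replicate 2. At 1000 to 2000 bases the median was 0.21. At 4000 bases and above it was −0.04, with 42.8% of 3201 genes higher in replicate 2. Short protein-coding transcripts thus stood higher in replicate 2 and long ones about level. Small RNA entries went the other way, with a median log2 ratio of −1.11 and 26.2% of 141 higher in replicate 2. The ratio also moved with level, from a median log2 ratio of 0.03 at 1 to 2 FPKM to 0.24 at 200 FPKM and above, where 89.4% of 378 protein-coding genes were higher in replicate 2. Length and level were not separated. The ribosomal protein genes, which are short, had a median log2 ratio of 0.29. The part of either in the values of single genes was not tested.

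**Figure D3:**
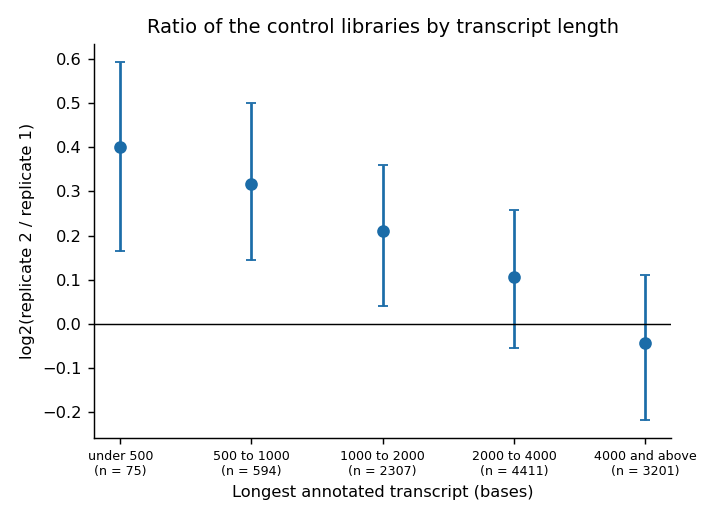
The vertical axis is the log2 ratio of replicate 2 to replicate 1 for expressed protein-coding genes, and the horizontal axis the length of the longest annotated transcript. Points are medians and bars run from the 25th to the 75th percentile of genes. The median falls from 0.40 under 500 bases to −0.04 at 4000 bases and above.

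A few longer genes of at least 10 FPKM differed by far more than the rest. Mest, an imprinted gene expressed from the paternal allele, was read at 3.32 and 41.3 FPKM, a ratio of 12.4 in favour of replicate 2. Meg3, the maternally expressed noncoding RNA of the Dlk1-Dio3 region, went the other way at 61.1 and 22.5 FPKM, as did Neat1, the scaffold of paraspeckles, at 34.6 and 13.0 FPKM. Lars2, the mitochondrial leucyl-tRNA synthetase, stood at 85.8 and 757 FPKM. The ribosomal RNA entry Rn45s, counted here with the small RNA entries, moved in the same direction as Lars2, at 388 and 1806 FPKM. Among entries with a mean of at least 10 FPKM and outside the small RNAs, the largest ratio was 22.2, at the pseudogene Rpl34-ps1. Several small RNA entries were listed at 0 in 1 library and high in the other, such as Snord58b at 0 and 4615 FPKM. At these loci the mean of the controls rests on values that do not overlap, and each is best read library by library.

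Coordinates on mm9 were found for 21919 of the 23265 genes (94.2%), of which 50.0% were expressed. A gene was called a target when a peak lay between 2.5 kb upstream of its start and its end. RING1B targets, 3522 genes, had a median of 0.217 FPKM and 29.7% of them were expressed (Wilson interval 28.2 to 31.2). For CBX7 the values were 3921 genes, 0.264 FPKM and 32.0%. The targets of CBX6 replicate 2, 3634 genes, had a median of 0.327 FPKM and 36.1% expressed (interval 34.6 to 37.7). The order of these 3 lists turned with the rule, since with a peak over the start itself the medians were 0.208 FPKM for RING1B, 0.190 FPKM for CBX7 and 0.174 FPKM for CBX6 replicate 2. The much longer list of CBX6 replicate 1 gave 12474 targets with a median of 5.60 FPKM and 69.8% expressed.

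Genes were then split by their combination of lists. The 2770 genes with all 3 of RING1B, CBX7 and CBX6 replicate 2 had a median of 0.178 FPKM and 25.8% expressed (Wilson interval 24.2 to 27.4). The 8785 genes without a peak of any of the 4 lists had 23.8% expressed (interval 22.9 to 24.7) and a median of 0.00626 FPKM. Both depend on the setting. The median was 0 in each library alone, and when only peaks with a score of at least 100 count it was 0.0854 FPKM with 37.6% expressed. Genes with a CBX6 replicate 1 peak alone, 8352, had a median of 11.2 FPKM and 83.9% of them were expressed. The 429 genes with RING1B and CBX7 but no CBX6 replicate 2 peak had a median of 0.251 FPKM and 31.7% expressed (interval 27.5 to 36.3), slightly more than those with all 3.

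Taken without regard to CBX6 replicate 1, genes with a peak of only 1 of RING1B and CBX7 were more often expressed. Where RING1B had a peak and CBX7 had none, 60.4% of 323 genes were expressed (interval 54.9 to 65.6), with a median of 2.65 FPKM. Where CBX7 had a peak and RING1B had none, the share was 56.2% of 722 genes with a median of 1.51 FPKM. Genes of CBX6 replicate 2 with neither RING1B nor CBX7, 538, were expressed in 75.7% (interval 71.9 to 79.1), with a median of 6.44 FPKM. These groups mix genes with and without a CBX6 replicate 1 peak. With RING1B as the only list, 32.5% of 83 genes were expressed, against 75.3% of 174 with RING1B and CBX6 replicate 1. The same shares were 28.9% of 76 and 59.6% of 386 for CBX7, and 41.9% of 74 and 81.0% of 464 for CBX6 replicate 2. With RING1B and CBX7 but neither CBX6 list, the share was 21.7% of 129. Genes are not replicates, so these differences carry no test.

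Turned around, the share of genes with a peak within 2.5 kb of the start depended on level without a steady fall. Among the 4901 genes listed at 0 in both libraries, 7.26% had a RING1B peak. At means above 0 and below 0.1 FPKM the share was 29.2%, and it peaked at 32.2% of the 2996 genes between 0.1 and 1 FPKM. It then fell to 14.8% at 1 to 10 FPKM, 3.60% at 10 to 100 FPKM and 1.25% of the 878 genes at 100 FPKM and above. CBX7 and CBX6 replicate 2 went the same way. CBX6 replicate 1 rose throughout, from 9.43% of genes at 0 to 78.7% at 100 FPKM and above. Genes that take up RING1B peaks were thus commonest among low but detected genes and less common among those listed at 0.

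**Figure D4:**
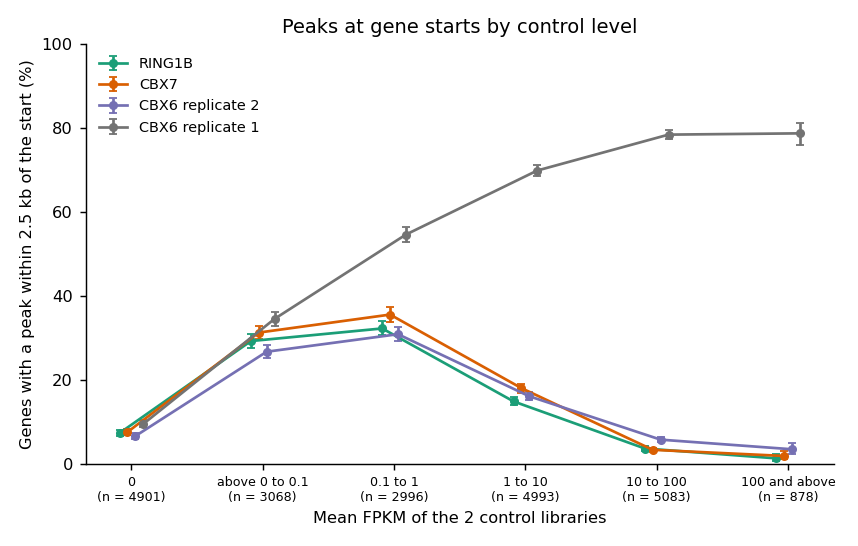
The horizontal axis groups genes by the mean FPKM of both control libraries, and the vertical axis gives the percent of them with a peak within 2.5 kb of the start in each list, with 95% Wilson intervals. RING1B, CBX7 and CBX6 replicate 2 peak between 0.1 and 1 FPKM, and CBX6 replicate 1 climbs to 78.7% in the highest group.

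Level also followed the strength of the peak within a list. MACS scores are a log-scaled p-value that is not on 1 scale between lists, so genes were ranked within each list by the best score near the start and divided into 4 groups of equal size. For RING1B, 48.2% of the lowest-scoring group were expressed and 11.8% of the highest-scoring group, and the medians were 0.829 and 0.0545 FPKM. For CBX7 the shares ran from 48.8% to 12.4%, and for CBX6 replicate 2 from 60.1% to 15.3%. The Wilson intervals of the lowest and highest groups do not overlap in any of these lists. For CBX6 replicate 1 the shares were 69.7% and 67.4%, with higher values between. The lowest groups of RING1B and CBX7 were thus expressed about as often as all genes with coordinates.

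**Figure D5:**
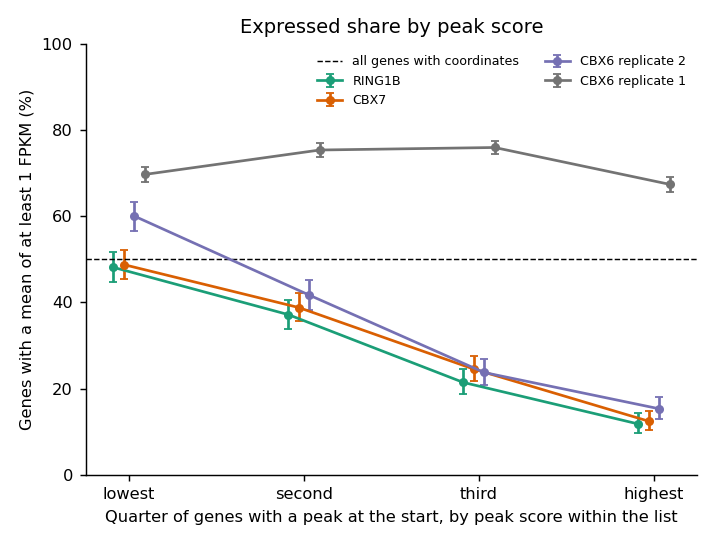
Genes with a peak within 2.5 kb of the start are divided into 4 equal groups by score within each list (horizontal axis), and the vertical axis is the percent with a mean of at least 1 FPKM, with 95% Wilson intervals. The dashed line is the 50.0% of all genes with coordinates. RING1B falls from 48.2% to 11.8%, and CBX6 replicate 1 lies between 67.4% and 76.0%.

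Of the 2770 genes with peaks of all 3 of RING1B, CBX7 and CBX6 replicate 2, 714 were expressed, 112 reached 10 FPKM (4.04%) and 7 reached 100 FPKM (0.253%). Over all genes with coordinates, 27.2% reached 10 FPKM and 4.01% reached 100 FPKM. The highest was Rpl7, a ribosomal protein gene, at 2040 and 2514 FPKM, with modest scores of 160, 281 and 106 for RING1B, CBX7 and CBX6 replicate 2. That RING1B peak also lies within 2.5 kb of the start of Rdh10, a retinol dehydrogenase, which stood at 1.59 and 1.24 FPKM. Esrrb came second, and its peaks lay inside the gene (RING1B at chr12:87762092-87764960, score 1143), while none lay within 2.5 kb of its start.

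Shmt2, the mitochondrial serine hydroxymethyltransferase, combined high expression with a strong peak near the start. It stood at 172 and 174 FPKM, and the RING1B peak at chr10:126961312-126965199 had a score of 2751, with CBX7 at 867 and CBX6 replicate 2 at 748. This peak lies upstream of the gene, which occupies chr10:126954195-126959491 on the minus strand. Eef1d, an elongation factor subunit, stood at 191 and 189 FPKM and shares its RING1B peak with Tigd5, at 0.243 and 0.221 FPKM. Bub3, of the spindle checkpoint, stood at 70.7 and 86.0 FPKM, with peak scores of 3100 in the 3 lists, a value at which many of the top peaks tie. Its RING1B peak also lies near the start of the homeobox gene Hmx2, which was listed at 0 in both libraries. Pfdn4, a prefoldin subunit at 64.1 and 74.5 FPKM, shares its RING1B peak with Cyp24a1, at 0.0195 and 0 FPKM. Ctsd, the lysosomal protease cathepsin D, stood at 96.1 and 116 FPKM with a RING1B peak of score 83.9 inside the gene and none near its start, and that peak lies near the start of Ifitm10, which was listed at 0 in both libraries. The noncoding Gm15645 stood at 60.1 and 78.4 FPKM. Its highest-scoring RING1B peak (1049) lies inside the gene and near the start of Dchs1, at 0.0318 and 0.0200 FPKM. A separate RING1B peak of score 772 lay at the start of Gm15645 itself, with no other gene start within 2.5 kb.

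Gnas, Phlda2 and Grb10 were further expressed targets with peaks of RING1B, CBX7 and CBX6 replicate 2 near the start. Gnas, the stimulatory G protein alpha subunit, stood at 116 and 122 FPKM, with a RING1B peak of score 3100 inside its complex locus and one of 146 at the start. Phlda2 was read at 94.8 and 131 FPKM with a RING1B score of 255 at the start. Grb10 stood at 62.0 and 73.3 FPKM, with scores of 3100 for RING1B and 3196 for CBX7. These 3 genes are known to be expressed from a single parental allele in some tissues, and no list of imprinted genes was counted. FPKM do not resolve alleles, so which allele carried the transcripts or the peaks was not tested.

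A RING1B peak shared with a silent neighbour was found at expressed and at silent targets. Of 625 expressed genes with all 3 peaks near the start, the RING1B peak lay near the start of another gene under 1 FPKM for 61 (9.76%). Among 1842 such genes under 1 FPKM it did so for 261 (14.2%). For the 96 genes of at least 10 FPKM the count was 20 (20.8%). The median RING1B score was 388 for the expressed genes and 1200 for those under 1 FPKM.

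Peaks were common at the starts of lineage genes. Of the 39 Hox genes, 31 had peaks of all 3 of RING1B, CBX7 and CBX6 replicate 2 within 2.5 kb of the start, of the 16 primitive streak and mesoderm genes 11, and of the 15 neuroectoderm genes with coordinates 13. Over all genes the share was 11.3%. Among genes of terminal differentiation it was 1 of 28, Sftpc, and among olfactory receptor genes 1 of 1087. Of the 11 neuroectoderm genes under 1 FPKM with coordinates, 11 had all 3, and so did Gbx2 and Pax6 among the expressed. In primitive endoderm all 3 lay at 4 of 6 expressed and 6 of 10 silent genes, and in trophectoderm at 3 of 4 expressed and 5 of 8 silent genes. In definitive endoderm they lay at 1 of 2 expressed and 7 of 10 silent genes. These counts carry no test. Glycolysis, the TCA cycle and the respiratory chain had no such gene.

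Sequence at the start separated the silent genes further. Among 1842 genes under 1 FPKM with all 3 peaks near the start, the window of 300 bases held a median of 19 CG, and 80.1% of windows held at least 10. Among 7294 genes under 1 FPKM without a peak of any list the median was 3 CG and the share 8.91%. Expressed genes with all 3 peaks had a median of 24 CG and those with a CBX6 replicate 1 peak alone a median of 22. Olfactory receptor genes had a median of 1 CG, Hox genes 13 and ribosomal protein genes 18. Silent genes with all 3 peaks thus had CG counts near the median of 20 over all expressed genes, and silent genes without a peak of any list had few. Between them lay 1071 genes under 1 FPKM with a CBX6 replicate 1 peak alone, with a median of 11 CG and 57.7% of windows with at least 10. Of the printed windows, Hand2 with 17 CG and Alb with 3 CG lie close to the medians of their classes, whereas Pou5f1 with 11 CG lies below the lower quartile of 12 for expressed genes.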

How the data were processed

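RNA of shCtl ESCs was sequenced from paired ends, with 2 libraries. The authors used TopHat for alignment (mm9, unique hits only) and Cufflinks for FPKM on RefSeq models. The deposited table gives FPKM by gene symbol, and how transcripts were combined is not stated. ChIP-seq peaks were called by the authors per sample with MACS, and the deposited score is a log-scaled p-value used here within a list only. Versions are not given in the sources used here. Of 23290 entries, 25 that carry dates in place of symbols were left out, after which no symbol repeated. Columns of shCbx6 and the control ChIP-seq samples were not used.

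Start and end of genes came from GENCODE on mm9 (21149 by name, 770 by synonym), in place of the RefSeq models of the authors. Small RNA entries were recognised by name or by their RefSeq kind. No test was run, since genes are not replicates and there is 1 group. Names were drawn from the 20 highest entries, the lists and gene families, the 10 highest targets of RING1B, CBX7 and CBX6 replicate 2 and the 5 largest ratios each way between the libraries from a mean of 10 FPKM. Longer entries were ranked apart after the values were seen, and Grb10, Rn45s, Rdh10, Tigd5, Hmx2, Cyp24a1, Ifitm10, Dchs1 and further small RNA entries were also chosen then. The lists, members and rules were chosen with earlier results of these data known. Python 3.11.15 (pandas 2.3.3, scipy 1.17.1) was used, and peak assignment was tested on simulated data. Depth was estimated only relative between the libraries, and intervals of shares cover counting error only. Some genes of the lists are not reported here by name.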

Additional observations from a re-analysis of the deposited data

How the results depend on the processing

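The number of expressed genes stayed within 1.5 times the reported 11158 under each alternative, from 8030 at 5 FPKM to 12157 at 0.5 FPKM, and was 10862 with both libraries at 1 FPKM or more and 11690 with libraries scaled to 1 sum. The 10 highest entries took 13.5% of the summed mean FPKM, 8.04% without small RNA entries, and 12.1 to 16.2% with a library left out. The count of 296 genes 2-fold apart rose to 3043 with no filter, and fell to 147 from 5 FPKM and to 180 on log2(FPKM + 1). It was 276 with 0.1 added and 307 when centred on the median ratio. Of all genes on the 29 lists, 72.0% were expressed, 76.4% at 0.5 FPKM, 62.1% at 5 FPKM, and 71.3 to 72.0% with a library left out. Lineage lists moved more at 5 FPKM, from 37.5 to 18.8% in primitive endoderm, from 31.3 to 12.5% in neuroectoderm, from 57.1 to 28.6% in germline genes, and to 0 from 16.7% in definitive endoderm and 14.3% in fibroblast genes.

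For RING1B targets the median of 0.217 FPKM became 0.208 with a peak over the start itself, 0.177 from a score of 100, 0.107 above the median score and 0.229 with at least 0.5 of the peak inside the window, and 0.207 to 0.214 with a library left out. For CBX7 (0.264) the medians were 0.244 within 2.5 kb of the start, 0.190 over the start, 0.196 from a score of 100, 0.142 above the median score, 0.274 with at least 0.5 of the peak inside the window, and 0.257 to 0.258 with a library left out. For CBX6 replicate 2 (0.327) they were 0.304, 0.174, 0.172, 0.134, 0.333 and 0.316 to 0.322 in the same order. For CBX6 replicate 1 (5.60) they were 6.37, 7.06, 6.20 and 6.13 for the first 4, and 5.44 to 5.62 with a library left out. Genes without any peak (0.00626) gave 0.0148, 0.0311, 0.0854, 0.0765 and 0.00700, and 0 in each library alone. By construction a stricter score moves genes into that class. No paired analysis was possible because there is a single group and no test. Both libraries carry the same limits: FPKM hide differences in total RNA, multiply mapping copies are uncertain, and values under about 0.1 FPKM rest on a few fragments.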
